A study of Caenorhabditis elegans with 12 samples.

Results

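The genes described here are the 9 that encode both routes of propionate breakdown in Caenorhabditis elegans: acdh-1, ech-6, hach-1, hphd-1 and alh-8 of the propionate shunt, and pcca-1, pccb-1, mce-1 and mmcm-1 of the canonical route that needs vitamin B12. They were chosen by name, as probe sets whose only annotated symbol was one of these, which gave 13 of the 22548 probe sets tested and 9 of the 17118 genes with a probe set of their own. Where a gene had several probe sets, the brightest on average across all 12 arrays was used. RNA of whole L4 larvae had been hybridised to 12 one-colour arrays, 3 for each of 4 groups. These were wild-type N2 (Bristol) raised without Cd, wild type exposed to 30 µM Cd, and the strain MT KO, mtl-1,mtl-2(zs1), in which both metallothionein genes are lost, without Cd and with the same exposure. Exposure ran from hatching to the L4 stage, all animals came from bleached, synchronised populations fed E. coli OP50, and parents were kept at 20 °C. The labels do not say whether the arrays of a group came from separate cultures, so p-values here measure only how much these arrays vary, and that variation may be technical.

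Propionyl-CoA, formed when branched-chain amino acids and odd-chain fatty acids are broken down, is toxic when it accumulates. In the canonical route the biotin enzyme propionyl-CoA carboxylase (PCCA-1 and PCCB-1) makes methylmalonyl-CoA, the epimerase MCE-1 converts its stereoisomer, and the B12-dependent mutase MMCM-1 yields succinyl-CoA for the TCA cycle. The shunt is a route resembling beta-oxidation that C. elegans is known to switch on when B12 is low, and the OP50 diet is known to be poor in B12: the dehydrogenase ACDH-1 is its first enzyme, followed by the hydratase ECH-6, the hydrolase HACH-1, the dehydrogenase HPHD-1 and the aldehyde dehydrogenase ALH-8, which yields acetyl-CoA. The intestine and hypodermis are the tissues in which acdh-1 is best known to be expressed.

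The labels held for the strains: the probe set of mtl-1 read 4.75 ± 0.32 (log2 GCRMA value, SD, n = 3) in unexposed wild type and 9.85 ± 0.38 after exposure, and in MT KO it read 3.57 ± 0.15 and 4.02 ± 0.22. Arrays correlated at r between 0.9911 and 0.9969 within groups. The signal of 3′ minus 5′ control probe sets for GAPDH and actin, a sign of RNA integrity and of amplification, was 1.98 ± 0.78 in wild type without Cd, where the arrays read 2.81, 1.84 and 1.28, whereas exposed wild type stood at 1.13 ± 0.10, unexposed MT KO at 1.38 ± 0.10 and exposed MT KO at 0.92 ± 0.17. In both strains every array with Cd read lower on this signal than every array without Cd. The signal thus ran with exposure, and a fit that holds it as a covariate cannot fully part them. On the brightest probe set of each gene, all values of the 9 genes lay between 7.10 and 13.28, above the median of all values, 4.03. The 10 intestine markers all read above that median, and their summed linear level was 18381 to 19200 in wild type without Cd and 17027 to 17496 with Cd, and 18687 to 19743 and 16410 to 17311 in MT KO. In these extracts of whole animals, fewer cells of a type and less RNA per cell cannot be told apart.

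With Cd, 4 of the 5 shunt genes fell in both strains. None of the 4 canonical genes passed the test on the probe set that stood for it. The falls ran from 1.92-fold (ech-6) to 3.58-fold (acdh-1) in wild type, and from 2.61-fold (ech-6) to 4.38-fold (hach-1) in MT KO. Over all probe sets, 11.9% changed in wild type (5.5% fell) and 22.5% in MT KO (11% fell), by limma with an adjusted p under 0.05. The median log2 difference was −1.05 over the 5 shunt genes and 0.07 over the 4 canonical genes in wild type, against 0.00 over all probe sets. In MT KO the medians were −1.71, 0.19 and 0.02.

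**Figure D1:**
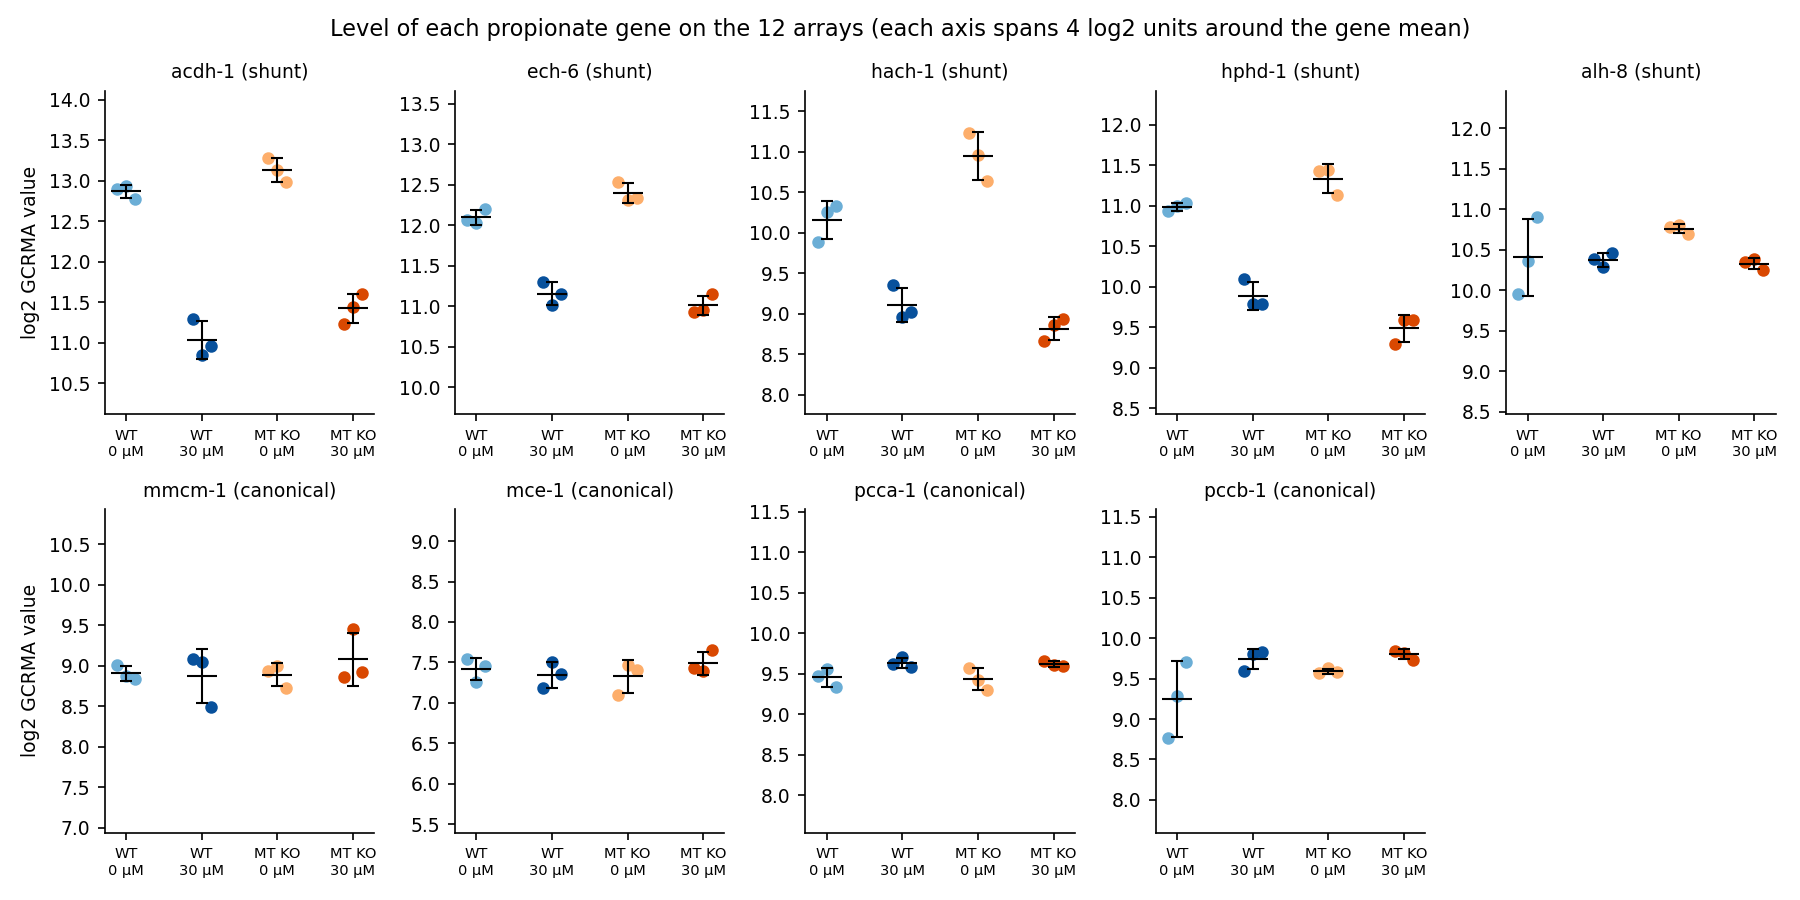
Log2 GCRMA value (vertical axis, spanning 4 log2 units in every panel) of each of the 9 genes on the 12 arrays, by strain and Cd (horizontal axis). Points are arrays and bars are the mean ± SD of 3; for acdh-1, ech-6, hach-1 and hphd-1 every array with Cd lies below every array without Cd of the same strain, while the groups of the canonical genes in the lower row overlap or lie close.

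acdh-1, on chromosome I (locus tag C55B7.4), encodes the acyl-CoA dehydrogenase that opens the shunt. Its log2 values in wild type were 12.90, 12.94 and 12.78 without Cd and 11.29, 10.85 and 10.96 with Cd. In MT KO they were 13.28, 13.14 and 12.99 without Cd and 11.24, 11.44 and 11.60 with Cd. In each strain all arrays with Cd lay more than 1 log2 unit below all arrays without it. Of all probe sets, 11.5% in wild type and 15.9% in MT KO lay below without overlap, by a gap of any size. The log2 difference was −1.84 (SE 0.129, limma adjusted p = 2.26e-05) in wild type and −1.71 (adjusted p = 1.96e-05) in MT KO.

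ech-6, on chromosome III (T05G5.6), encodes the enoyl-CoA hydratase of the next step. It read 12.06, 12.03 and 12.20 in wild type without Cd and 11.31, 11.01 and 11.15 with Cd. In MT KO it read 12.54, 12.31 and 12.34 without Cd and 10.93, 10.96 and 11.15 with Cd. The groups with and without Cd did not overlap in either strain. It differed by −0.94 (SE 0.0948, limma adjusted p = 0.000226) in wild type and −1.39 (adjusted p = 1.14e-05) in MT KO.

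hach-1, on chromosome III (F09F7.4), encodes the hydrolase that releases the free hydroxy acid from CoA. Its values in wild type were 9.89, 10.26 and 10.33 without Cd and 9.35, 8.96 and 9.02 with Cd. In MT KO they were 11.24, 10.96 and 10.65 without Cd and 8.66, 8.86 and 8.93 with Cd. The arrays with Cd lay below the others in both strains, and the widest distance between group means among the 9 genes was that of hach-1 in MT KO. The log2 values differed by −1.05 (SE 0.173, limma adjusted p = 0.00379) in wild type and −2.13 (adjusted p = 2.8e-05) in MT KO.

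hphd-1, on chromosome II (Y38F1A.6), encodes the dehydrogenase that oxidises 3-hydroxypropionate. On its brighter probe set it read 10.94, 10.99 and 11.03 in wild type without Cd and 10.09, 9.78 and 9.78 with Cd. In MT KO it read 11.43, 11.45 and 11.13 without Cd and 9.29, 9.59 and 9.58 with Cd. Again no array with Cd reached the lowest array without Cd of its strain. On the log2 scale the difference was −1.1 (SE 0.117, limma adjusted p = 0.000319) in wild type and −1.85 (adjusted p = 7.49e-06) in MT KO. The other probe set of hphd-1 gave −1.01 (adjusted p = 0.000671) and −1.71 (adjusted p = 1.45e-05), and the suffix x in its name marks a set whose probes may also bind other transcripts. These falls of acdh-1, ech-6, hach-1 and hphd-1 passed the threshold in both strains under every alternative computed.

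alh-8, on chromosome II (F13D12.4), encodes the aldehyde dehydrogenase of the last step and was the shunt gene that did not pass. It read 9.95, 10.36 and 10.90 in wild type without Cd and 10.38, 10.28 and 10.45 with Cd. In MT KO it read 10.78, 10.80 and 10.69 without Cd and 10.35, 10.39 and 10.25 with Cd. In wild type the arrays without Cd spread over a wider range than those with Cd and enclosed them, whereas in MT KO the arrays with Cd all lay below. The log2 difference was −0.03 (95% interval −0.45 to 0.39) in wild type and −0.43 (−0.85 to −0.01) in MT KO, and neither passed the threshold (limma adjusted p = 1.0 and 0.147). The wild-type arrays without Cd stood in the reverse order of their 3′ minus 5′ signal, lowest where that signal was 2.81. For hach-1 and for the brighter probe set of hphd-1 these arrays stood in the same order, over a narrower range. The signal was also lower with Cd in both strains, so a covariate fit cannot fully part it from Cd. With that signal as a covariate alh-8 gave −0.49 (limma adjusted p = 0.0498, range over the alternatives 0.0498 to 1.0) in wild type and −0.68 (adjusted p = 0.00191, range 0.00191 to 0.294) in MT KO. The MT KO difference also passed when the fit held only the arrays compared (adjusted p = 0.0052), without wild type no-Cd replicate 1 (0.0336) and without wild type no-Cd replicate 3 (0.0142).

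**Figure D2:**
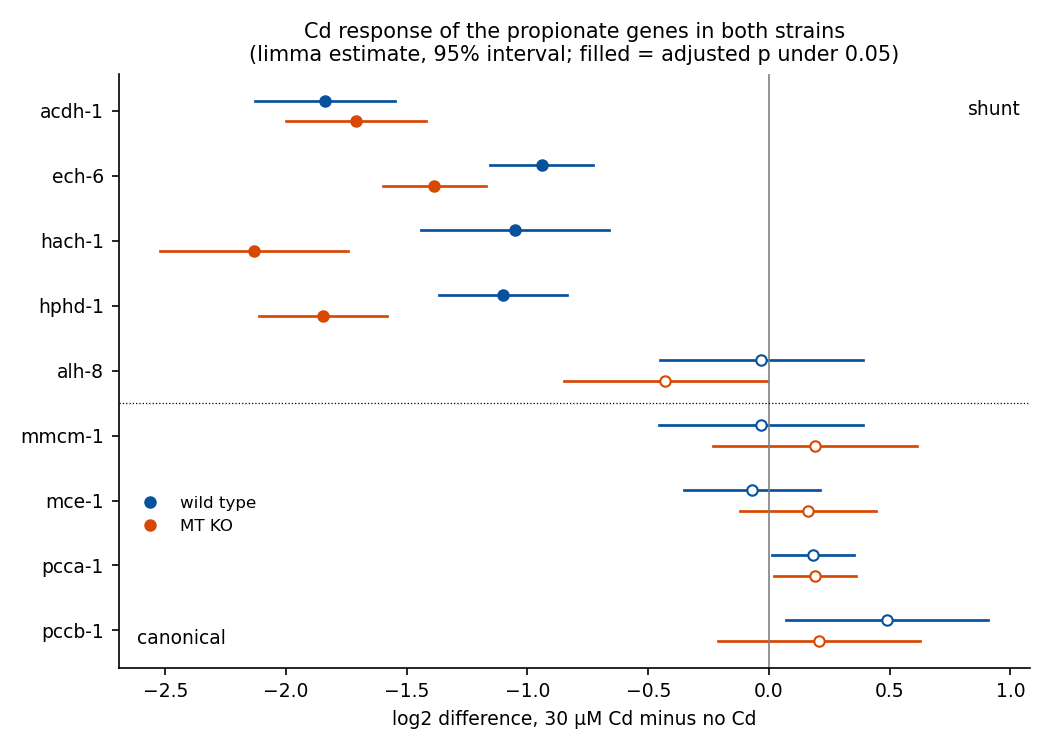
Log2 difference between 30 µM Cd and no Cd (horizontal axis) for the 9 genes (vertical axis) in wild type and MT KO. Points are limma estimates from 3 arrays per group, filled where the adjusted p was under 0.05, and lines are 95% intervals; the first 4 shunt genes lie between −0.94 and −2.13, whereas alh-8 and the canonical genes are open points between −0.43 and 0.49.

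The canonical route starts with the carboxylase, whose alpha subunit is encoded by pcca-1 and whose beta subunit by pccb-1, both on the X chromosome (F27D9.5 and F52E4.1). pcca-1 read 9.47, 9.56 and 9.33 in wild type without Cd and 9.62, 9.70 and 9.58 with Cd. In MT KO it read 9.57, 9.42 and 9.30 without Cd and 9.66, 9.61 and 9.60 with Cd. The arrays with Cd lay just above the others in both strains, as they did for 13.4% of all probe sets in wild type and 27.3% in MT KO, by a margin smaller than the range within the groups without Cd. The log2 difference of 0.18 (95% interval 0.01 to 0.35, limma adjusted p = 0.180) in wild type and 0.19 (0.02 to 0.36, adjusted p = 0.107) in MT KO did not pass the threshold.

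pccb-1 read 8.76, 9.28 and 9.70 in wild type without Cd and 9.59, 9.80 and 9.82 with Cd. In MT KO it read 9.57, 9.63 and 9.58 without Cd and 9.85, 9.82 and 9.73 with Cd. The wild-type arrays without Cd spread most and overlapped those with Cd, and they again stood in the reverse order of the 3′ minus 5′ signal, while in MT KO the arrays with Cd lay above. The log2 difference was 0.49 (95% interval 0.07 to 0.91, limma adjusted p = 0.140) in wild type and 0.21 (−0.21 to 0.63, adjusted p = 0.506) in MT KO. With that signal as a covariate the wild-type value was 0.01 (limma adjusted p = 0.963, range over the alternatives 0.0109 to 0.963), and without wild type no-Cd replicate 3 it was 0.72 (adjusted p = 0.0109). The fit shares 1 estimate of the spread, so the MT KO interval also carries the SD of 0.47 in unexposed wild type. The SD was 0.03 and 0.06 in MT KO without and with Cd. With only the MT KO arrays in the fit, the MT KO difference of 0.21 passed (limma adjusted p = 0.0249).

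mce-1, on chromosome I (D2030.5), encodes the epimerase. Its values in wild type were 7.54, 7.26 and 7.45 without Cd and 7.18, 7.51 and 7.35 with Cd, and in MT KO 7.10, 7.47 and 7.41 without Cd and 7.43, 7.39 and 7.65 with Cd. All 4 groups overlapped. The log2 difference with Cd was −0.07 (95% interval −0.35 to 0.21, limma adjusted p = 0.921) in wild type and 0.16 (−0.12 to 0.44, adjusted p = 0.430) in MT KO.

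mmcm-1, on chromosome III (ZK1058.1), encodes the mutase that carries the B12 cofactor. It read 9.01, 8.87 and 8.84 in wild type without Cd and 9.09, 9.04 and 8.49 with Cd. In MT KO it read 8.93, 9.0 and 8.73 without Cd and 8.86, 9.45 and 8.92 with Cd. The groups overlapped, and the arrays with Cd were the more spread ones. The log2 difference was −0.03 (95% interval −0.45 to 0.39) in wild type and 0.19 (−0.23 to 0.61) in MT KO, with a limma adjusted p of 1.0 and 0.550.

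The probe sets of a canonical gene did not always give the same call. The other probe set of mmcm-1 read 8.38, 8.51 and 8.65 in wild type without Cd and 8.78, 9.11 and 8.90 with Cd, which do not overlap. It rose by 0.42 (SE 0.0914, limma adjusted p = 0.0168) in wild type and by 0.37 (adjusted p = 0.0167) in MT KO. The other probe set of pcca-1 gave 0.15 (adjusted p = 0.303) in wild type and rose by 0.36 (SE 0.0798, adjusted p = 0.00891) in MT KO. The other probe set of pccb-1 lay below the median of all values in every group and gave 0.20 (adjusted p = 0.0201) in wild type and 0.01 in MT KO. With these probe sets in place of the first, 6 of the 9 genes would count as changed in each strain, none of the canonical ones downward. The suffix s, which marks probes shared by several transcripts, is carried by these probe sets of mmcm-1 and pcca-1 and also by the main ones of ech-6, hphd-1, alh-8 and pccb-1. Which probe set follows the mRNA more closely was not tested.

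Both routes were set side by side on each array as the mean of their genes relative to each gene's mean in wild type without Cd. The shunt mean was −0.99 ± 0.16 (log2, SD, n = 3 arrays) in exposed wild type and −1.09 ± 0.11 in exposed MT KO, and the canonical mean was 0.14 ± 0.10 and 0.24 ± 0.06. Without Cd, MT KO stood at 0.41 ± 0.15 for the shunt and 0.05 ± 0.07 for the canonical route. The shunt mean of every array with Cd lay at or below −0.82 and that of every array without Cd at or above −0.16. The difference shunt minus canonical was −1.13 ± 0.23 in exposed wild type, 0.36 ± 0.14 in unexposed MT KO and −1.33 ± 0.10 in exposed MT KO. alh-8 is included in these means, although it moved less than the other shunt genes.

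**Figure D3:**
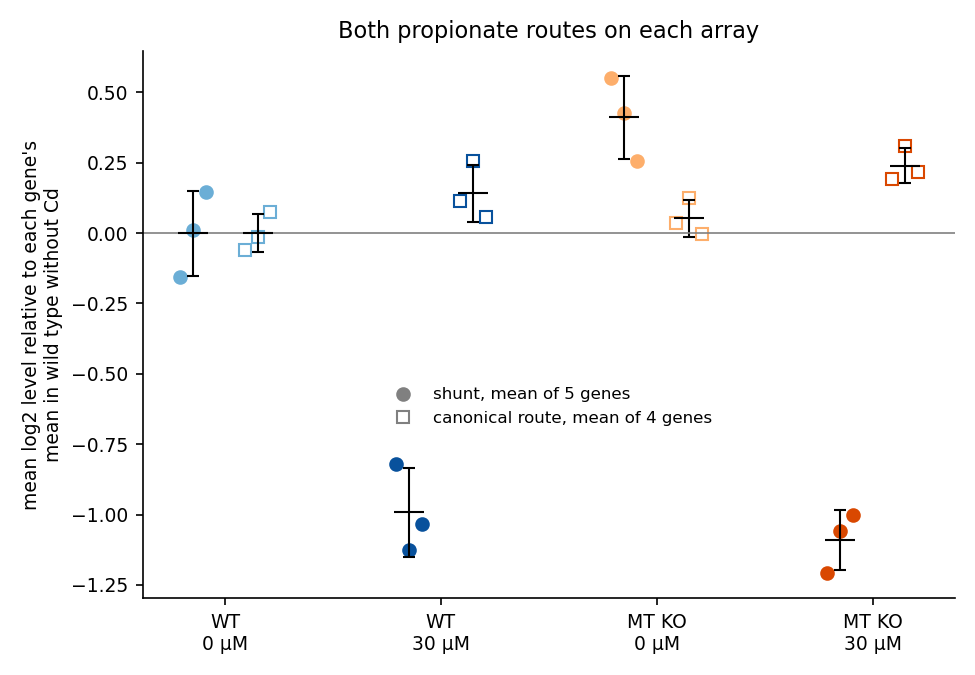
Mean log2 level of the 5 shunt genes (circles) and of the 4 canonical genes (squares), relative to each gene's mean in wild type without Cd (vertical axis), on each array by group (horizontal axis). Bars are the mean ± SD of 3 arrays; the shunt means with Cd lie between −0.82 and −1.21, and the canonical means of all 12 arrays between −0.06 and 0.31.

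Within a treatment, no difference between the strains passed for these genes. Without Cd, none of the 9 passed the test of MT KO against wild type, where 1.65% of all probe sets did. The arrays of MT KO nevertheless lay wholly above those of wild type for acdh-1, ech-6, hach-1 and hphd-1, an arrangement that 8.43% of all probe sets showed. Their log2 differences were 0.26, 0.30, 0.79 and 0.35, with limma adjusted p between 0.0613 (hach-1) and 0.398 (acdh-1). hach-1 passed with dim probe sets filtered out (limma adjusted p = 0.0195, range over the alternatives 0.0195 to 0.207), with an intensity trend in the variance (0.0402) and, at 0.94, without MT KO no-Cd replicate 3 (0.0432). alh-8, at 0.35 (adjusted p = 0.448), passed at 0.60 without wild type no-Cd replicate 3 (limma adjusted p = 0.0366, range 0.0366 to 0.949).

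With Cd, again none of the 9 genes passed between the strains, where 8.56% of all probe sets did. The arrays of MT KO lay wholly below wild type for hach-1 (−0.29, limma adjusted p = 0.418) and hphd-1 (−0.40, adjusted p = 0.0742), as they did for 11.5% of all probe sets, whereas acdh-1 leaned the other way at 0.39 (adjusted p = 0.107) with overlapping arrays. Without MT KO no-Cd replicate 3, hphd-1 passed (limma adjusted p = 0.0491, range over the alternatives 0.0491 to 0.235), and without wild type Cd replicate 1 acdh-1 passed at 0.52 (adjusted p = 0.04, range 0.04 to 0.299). The canonical genes gave −0.09 (mce-1) to 0.34 (pccb-1) between strains without Cd, and −0.01 (pcca-1) to 0.20 (mmcm-1) with Cd. From highest to lowest mean, ech-6, hach-1 and hphd-1 thus ran from unexposed MT KO through unexposed wild type and exposed wild type to exposed MT KO, while the last 2 places were exchanged for acdh-1. Neighbours in these orders that shared a treatment did not pass a test.

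With all 12 arrays the Cd response itself differed between the strains for hach-1 and hphd-1, the hydrolase and the dehydrogenase in the middle of the shunt. The interaction of strain and Cd, MT KO minus wild type, was −1.08 (SE 0.245, limma adjusted p = 0.0341) for hach-1 and −0.75 (SE 0.166, adjusted p = 0.032) for hphd-1, and −0.70 (adjusted p = 0.0492) on the other probe set of hphd-1. Over all probe sets, 5.45% passed this test (3.36% downward). The strain difference of hach-1 was 0.79 without Cd and −0.29 with Cd, and that of hphd-1 0.35 and −0.40, none past the threshold. The interaction of ech-6 was −0.45 (SE 0.134, adjusted p = 0.102), that of alh-8 −0.40 (adjusted p = 0.542) and that of acdh-1 0.13 (SE 0.183, adjusted p = 0.818). The canonical genes gave 0.22 (mmcm-1), 0.23 (mce-1), 0.01 (pcca-1) and −0.28 (pccb-1), none past the threshold. Without wild type no-Cd replicate 3, alh-8 gave −0.65 (limma adjusted p = 0.0496, range over the alternatives 0.0496 to 0.794).

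The calls for hach-1 and hphd-1 lay close to the threshold and passed under 7 of 17 and 9 of 18 alternatives. The hach-1 interaction had a limma adjusted p from 0.00903 to 0.0803 over its alternatives, with values from −1.23 to −0.94. It no longer passed without MT KO Cd replicate 1 (−1.01) or 2 (−1.1), MT KO no-Cd replicate 1 (−0.94) or 2 (−1.08), wild type Cd replicate 1 (−0.96) or 3 (−1.13), or wild type no-Cd replicate 1 (−0.95) or 2 (−1.13). The hphd-1 interaction ranged from −0.85 to −0.64, with a limma adjusted p from 0.0177 to 0.0801. It no longer passed without MT KO Cd replicate 1 (−0.65), MT KO no-Cd replicate 1 (−0.70) or 2 (−0.69), wild type Cd replicate 1 (−0.64), or wild type no-Cd replicate 1 (−0.72), 2 (−0.75) or 3 (−0.77). With the 3′ minus 5′ control signal in the fit neither passed, at −0.99 (limma adjusted p = 0.053) and −0.73 (0.0546).

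Of 9 genes for B12 and biotin handling, 5 fell with Cd in wild type, and 5 fell in MT KO, with no rise in either. Their median log2 difference was −0.74 and −0.52. The shares of all probe sets that fell were 5.5% and 11%. pmp-5, an ABC transporter, read 10.24, 10.14 and 10.21 in wild type without Cd and 7.69, 7.73 and 7.61 with Cd, and its log2 difference was −2.52 (SE 0.109, limma adjusted p = 1.03e-06), against −2.42 (adjusted p = 1.46e-06) in MT KO. metr-1, the B12-dependent methionine synthase, fell, with −1.58 (adjusted p = 6.73e-05) and −1.80 (1.51e-05), as did mtrr-1, its reductase, with −2.21 (5.03e-07) and −2.16 (7.59e-07). As for acdh-1, ech-6, hach-1 and hphd-1, no array with Cd reached an array without Cd in either strain for pmp-5, metr-1 or mtrr-1. mmaa-1, a chaperone of the mutase, gave −0.84 (limma adjusted p = 0.00408) and −0.97 (0.000829), where mmcm-1 itself gave −0.03 and 0.19.

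The 5 remaining genes of that list moved less. mrp-5, a transporter known to export B12 from the intestine, fell by 0.74 in wild type (limma adjusted p = 0.00102) and gave −0.20 in MT KO (adjusted p = 0.182), with an interaction of 0.53 (adjusted p = 0.0551). mmab-1, the adenosyltransferase that makes the mutase's cofactor, gave −0.18 (0.333) and −0.32 (adjusted p = 0.0404), and the latter call held under 5 of 18 alternatives. cblc-1 gave −0.52 in both strains (0.0845 and 0.0555), mmad-1 0.37 and 0.15, and bpl-1, the ligase that attaches biotin to the carboxylase, −0.08 and 0.32; none of these passed. The mmab-1 fall was lost without MT KO Cd replicate 1 (−0.23) or 2 (−0.31), MT KO no-Cd replicate 1 (−0.28), 2 (−0.33) or 3 (−0.35), any of the wild type Cd replicates or wild type no-Cd replicate 3 (each −0.32).

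The nuclear receptors that act on these genes did not move together. nhr-10, known to activate acdh-1 together with nhr-68 when propionate is high, read 6.32, 6.78 and 6.72 in wild type without Cd and 6.66, 6.55 and 6.53 with Cd, with a log2 difference of −0.03 there and 0.06 in MT KO. nhr-68 read 7.68, 7.87 and 7.62 without Cd and 7.26, 7.08 and 7.08 with Cd in wild type, and 8.27, 8.08 and 7.94 against 6.87, 7.03 and 7.08 in MT KO. The groups of nhr-10 overlapped and those of nhr-68 did not. nhr-68 fell by 0.58 (SE 0.1, limma adjusted p = 0.00476) and 1.1 (adjusted p = 5.32e-05), and the wild-type fall had an adjusted p of 0.0504 with the 3′ minus 5′ control signal in the fit (range over the alternatives 0.00265 to 0.0504).

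nhr-114, a receptor known to activate methionine cycle genes when that cycle runs low, read 5.92, 6.56 and 7.15 in wild type without Cd and 4.32, 3.68 and 4.55 with Cd. The arrays with Cd lay near the median of all values. nhr-114 fell by 2.36 (SE 0.345, limma adjusted p = 0.00194) in wild type and by 2.64 (adjusted p = 0.000443) in MT KO. Of the regulators' list of 6, these 2 fell in both strains. nhr-49, a regulator of fat metabolism, gave 0.07 in wild type and rose by 0.39 (limma adjusted p = 0.0194) in MT KO. That call held under 14 of 18 alternatives. It was lost with the 3′ minus 5′ control signal in the fit (0.0555) and with only the arrays compared (0.0944). Without MT KO Cd replicate 2 (0.0565) or 3 (0.0589) it was lost too. mdt-15 and sbp-1 passed in neither strain.

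**Figure D4:**
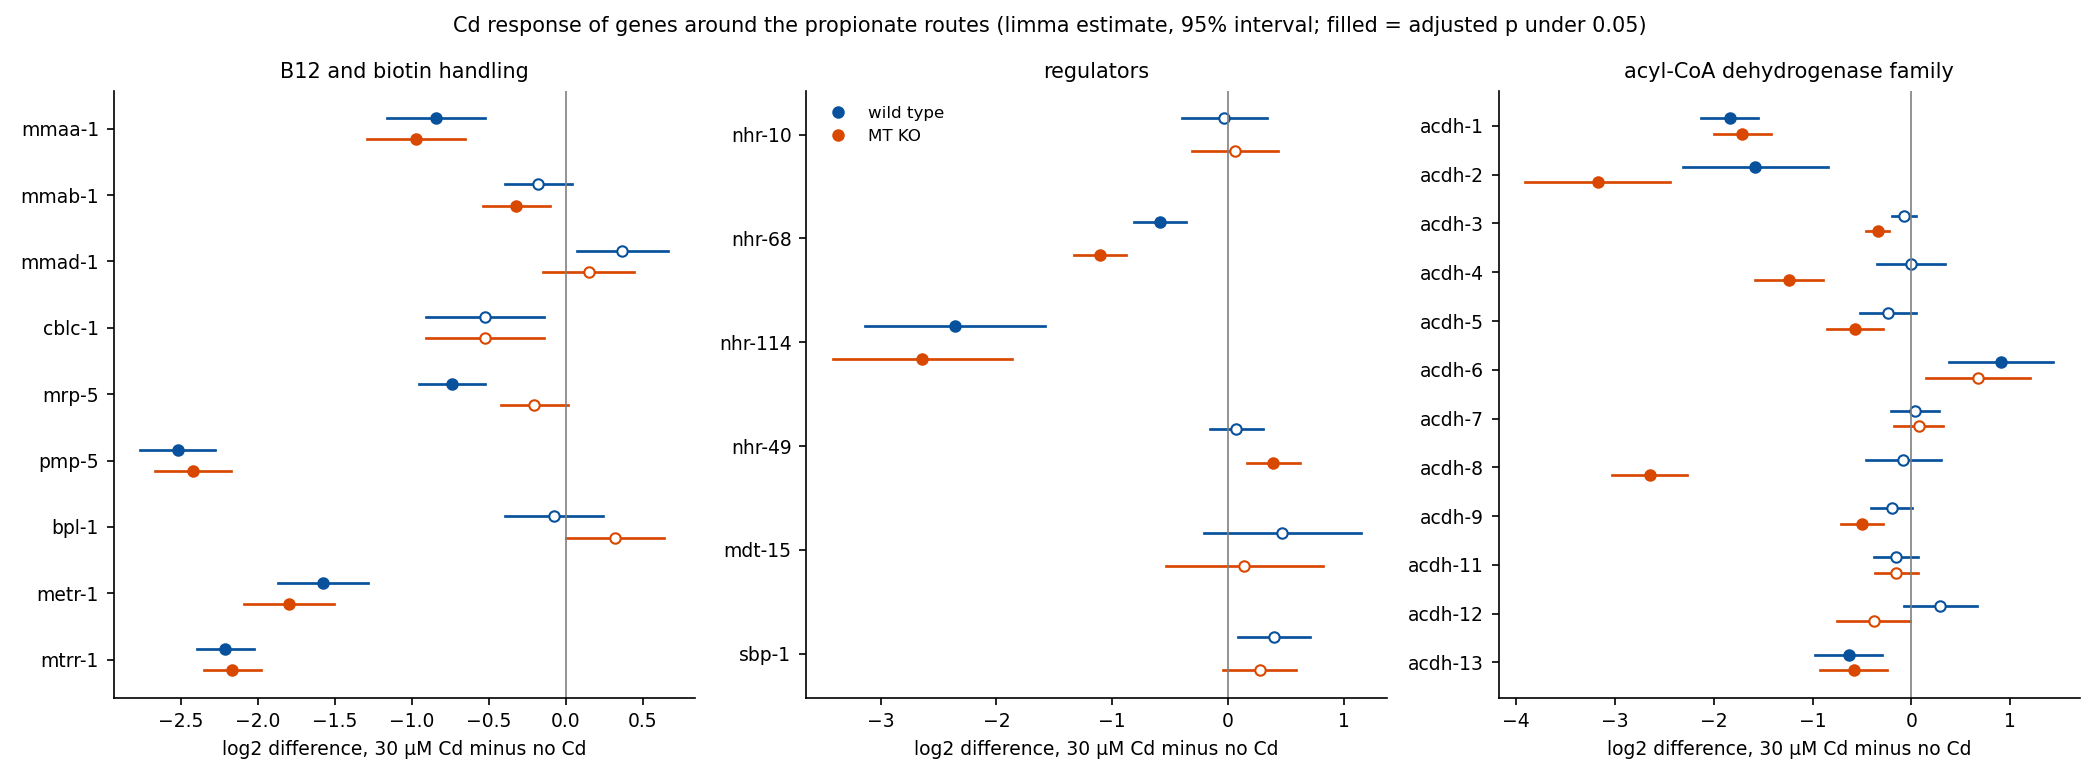
Log2 difference between 30 µM Cd and no Cd (horizontal axes) for the genes of B12 and biotin handling, the regulators and the acyl-CoA dehydrogenase family (vertical axes) in wild type and MT KO. Points are limma estimates from 3 arrays per group, filled where the adjusted p was under 0.05, and lines are 95% intervals; pmp-5, mtrr-1, metr-1 and nhr-114 lie below −1.5 in both strains, and acdh-8 lies near 0 in wild type and at −2.65 in MT KO.

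Genes of pathways next to the routes were counted in the same way. Of 9 measured genes of branched-chain amino acid breakdown, 1 fell in wild type and 6 in MT KO (medians −0.18 and −0.47). That breakdown is a source of propionyl-CoA, but the list was not limited to the steps that yield it. Without MT KO Cd replicate 1 or 2, 3 fell in MT KO. In wild type 4 changed with the 3′ minus 5′ control signal in the fit (1 higher, 3 lower), 3 with dim probe sets filtered out, and 2 with the intensity trend or without MT KO no-Cd replicate 1 or 3 or wild type no-Cd replicate 1 or 3. dbt-1, a subunit of the branched-chain ketoacid dehydrogenase, fell by 0.42 (limma adjusted p = 0.00101) and 0.56 (adjusted p = 8.05e-05), and mccc-1, of leucine breakdown, gave −0.06 and fell by 0.48 (adjusted p = 0.00134) in MT KO, with an interaction of −0.41 (adjusted p = 0.0551). Of 4 subunits of succinyl-CoA ligase, which uses the product of the canonical route, sucg-1 fell in both strains, by 0.69 (adjusted p = 0.00437) and 1.05 (0.000161), and sucl-2 gave −0.29 (0.0793) and fell by 0.63 (0.000817) in MT KO. The falls in MT KO are to be read against the 11% of all probe sets that fell there.

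Among the 11 other measured genes of the acyl-CoA dehydrogenase family, to which acdh-1 belongs, 1 rose and 2 fell in wild type, and 7 fell in MT KO. Of those 7, 1 lay below the median of all values in every group (mean 3.60 without Cd and 3.03 with Cd in MT KO). The shares of all probe sets that fell were 5.5% in wild type and 11% in MT KO. The wild-type count depended on the setting: with acdh-1 itself it was 4, and it dropped to 1 with the 3′ minus 5′ control signal in the fit or without wild type no-Cd replicate 2, and to 2 with only the arrays compared or without wild type Cd replicate 2. The gene that rose, acdh-6, lay near the median of all values (3.55 ± 0.33 without Cd and 4.46 ± 0.50 with Cd) and passed under 9 of 17 alternatives, and acdh-13 passed under 13 of 18. acdh-2 read 6.59, 7.03 and 6.62 in wild type without Cd and 5.73, 4.42 and 5.35 with Cd, and 8.24, 8.18 and 7.39 against 4.79, 4.72 and 4.79 in MT KO. It fell by 1.58 (SE 0.326, limma adjusted p = 0.0123) in wild type and by 3.18 (adjusted p = 0.000102) in MT KO, with an interaction of −1.60 (adjusted p = 0.0866). The wild-type fall of acdh-2 did not pass with the 3′ minus 5′ control signal in the fit (limma adjusted p = 0.0802, range over the alternatives 0.00117 to 0.0802), with only the arrays compared (0.0608) or without wild type no-Cd replicate 2 (0.0502). acdh-8 gave −0.08 and −2.65, and acdh-4 −0.00 and −1.24, with the MT KO falls at adjusted p = 7.49e-06 and 0.000316. Unlike for acdh-1, the interaction of strain and Cd passed for both (−2.56, adjusted p = 0.000948, and −1.23, adjusted p = 0.011).

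Some tissue markers moved with Cd as well. Over all probe sets, 11.9% changed in wild type (5.5% fell) and 22.5% in MT KO (11% fell). In wild type no marker of the hypodermis and moulting or body wall muscle lists passed. Of the 10 intestine markers, 2 rose and 3 fell in wild type (1 and 2 with the 3′ minus 5′ control signal in the fit), and 1 rose and 5 fell in MT KO. The largest fall was that of pept-1, the peptide transporter, at −2.34 and −2.35, and the intestinal identity factor elt-2 gave −0.55 and 0.13, neither past the threshold. Of 9 hypodermis and moulting markers none changed in wild type, where their summed linear level was 11020 to 12155 without Cd and 10222 to 10805 with Cd, while 1 rose and 6 fell in MT KO, where it was 8398 to 11488 and 5091 to 5537. In wild type, 1 or 2 of these markers passed with the 3′ minus 5′ control signal, the filter on dim probe sets, the intensity trend, only the arrays compared, or without MT KO Cd replicate 2 or 3, MT KO no-Cd replicate 1 or wild type no-Cd replicate 3. Of 17 sperm markers, 1 fell in wild type (summed level 14808 to 21413 without Cd, 11060 to 13796 with Cd) and 16 in MT KO (21520 to 33586 and 3239 to 4229), with spe-9 and spe-38 below the median of all values in every group. The wild-type count for sperm ranged from 0 to 4 over the alternatives, and was 0 without MT KO Cd replicate 1, 2 or 3, MT KO no-Cd replicate 2, wild type Cd replicate 2 or 3, or wild type no-Cd replicate 1, 2 or 3, and 2 without MT KO no-Cd replicate 3. Of 5 vitellogenins 3 fell in each strain, with vit-4 and vit-5 below that median in every group and vit-2 and vit-6 also below it with Cd. Of 8 neuron markers 3 rose in wild type (summed level 2359 to 2412 without Cd, 3035 to 3590 with Cd) and 6 in MT KO (2280 to 2417 and 3899 to 4163), with unc-10 and unc-31 below the median. Of 8 body wall muscle markers none rose in wild type and 2 in MT KO, with hlh-1 below the median. The count of 2 was 0 with dim probe sets filtered out, with the intensity trend, and without MT KO Cd replicate 2 or MT KO no-Cd replicate 2. It was 1 with the 3′ minus 5′ control signal, with only the arrays compared, and without MT KO Cd replicate 1 or 3, MT KO no-Cd replicate 1 or 3, wild type Cd replicate 1, 2 or 3, or wild type no-Cd replicate 2. Between the strains with Cd (8.56% of all probe sets passed), 15 of 17 sperm markers were lower in MT KO. So were 6 of 9 hypodermis markers, with 1 higher, and 4 of 8 neuron markers were higher. The interaction (5.45%) passed downward for 15 sperm and 4 hypodermis markers, and upward for 1 hypodermis and 3 neuron markers. No intestine, vitellogenin or muscle marker passed either test. The neuron, hypodermis and intestine counts varied over the alternatives. The part of these shifts in the values of the propionate genes was not tested.

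Across the 12 arrays the values of acdh-1 ran with those of ech-6 (Pearson r = 0.96), hphd-1 (0.94) and hach-1 (0.93), less with alh-8 (0.45), and not with mmcm-1 (−0.08) or mce-1 (−0.18), while pccb-1 (−0.56) and pcca-1 (−0.73) ran against it. These coefficients describe 12 arrays that share the same 4 groups, so they restate the difference between groups. Among 8688 other genes above the median of all values, the 5 most like acdh-1 were msra-1, a methionine sulfoxide reductase (0.99), T05E12.6 (0.99), pmp-5 (0.99), mtrr-1 (0.99) and hrg-1, a heme transporter (0.99). The 5 most like pcca-1, with r from 0.89 to 0.92, were K07H8.2, efr-3, chil-13, clip-1 and ras-1, all higher with Cd by 0.24 to 0.76 in their means.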

How the data were processed

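The authors deposited log2 values with 1 value per probe set and array; GCRMA is named per the submitters' processing notes, and its version and the genome build are not given in the sources used here. Per the labels' protocols, 200 ng of total RNA was amplified and labelled with biotin. The log2 scale was read from the values, which run from 1.56 to 14.5. They were used with no further normalization or filter. Of 22625 probe sets, 77 controls were set aside and 22548 tested; 20766 carried 1 symbol, 887 several and 895 none, and 20701 matched the RefSeq table of WBcel235, used for names, locus tags and chromosomes only.

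One mean per group was estimated from the 12 arrays by limma 3.58.1 under R 4.3.3 (lmFit, eBayes, 8 residual degrees of freedom, prior degrees of freedom 1.38), with 5 differences tested two-sided and p-values adjusted by Benjamini-Hochberg over all probe sets. An adjusted p under 0.05 counted as passing. The code was tested on simulated data. SD is over 3 arrays and SE is that of the fit. Precision is limited by the number of arrays.

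The members and all gene lists were chosen with earlier results of these data known. The text names every member, every gene of B12 and biotin handling and of the regulators, up to 4 genes of each other list by adjusted p, and the 5 genes most like acdh-1 and pcca-1; markers named singly were chosen after their values were seen. tag-173, mccc-2 and acdh-10 had no probe set of their own symbol and were not analysed here. Alternatives were each array left out, quantile normalization, a filter on dim probe sets, the replicate number as a block, only the arrays compared, the 3′ minus 5′ control signal in the fit, an intensity trend, and the other probe set of a gene.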

Additional observations from a re-analysis of the deposited data

Results flagged for a closer look

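The interaction of strain and Cd (MT KO minus wild type, limma) passed for 7 probe sets of the genes described, with the marker lists left out. Over all probe sets, 5.45% passed this test. For hach-1 the interaction was −1.08 (SE 0.245, adjusted p = 0.0341), from a difference of −1.05 in wild type and −2.13 in MT KO. For hphd-1 it was −0.75 (SE 0.166, adjusted p = 0.032) on one probe set and −0.70 (SE 0.173, adjusted p = 0.0492) on the other. The call of hach-1 held under 7 of 17 alternatives and that of hphd-1 under 9 of 18. Both were lost with the 3′ minus 5′ control signal in the fit (0.053 and 0.0546). Each was also lost when a single array was left out, and the arrays, named per gene with the strain comparison, were not all the same.

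Among the related families, acdh-8 gave −2.56 (SE 0.238, adjusted p = 0.000948), from −0.08 in wild type and −2.65 in MT KO, and acdh-4 gave −1.23 (SE 0.216, adjusted p = 0.011), from −0.00 and −1.24. Both passed under all 17 alternatives computed for them. alh-10 gave 0.62 (SE 0.0914, adjusted p = 0.00498), from −0.41 and 0.20, and also passed under all 17. ech-7 gave 0.76 (SE 0.187, adjusted p = 0.0473), from −0.81 and −0.05, and passed under 6 of 17. The call of ech-7 did not hold with the 3′ minus 5′ control signal in the fit (0.75), nor without MT KO Cd replicate 1 (0.80), 2 (0.84) or 3 (0.66), MT KO no-Cd replicate 1 (0.74) or 2 (0.68), wild type Cd replicate 1 (0.67) or 2 (0.77), or wild type no-Cd replicate 1 (0.72), 2 (0.76) or 3 (0.81).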

How the results depend on the processing

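Of 540 values of the 9 genes with 1 array left out, 516 kept their direction and their side of the threshold, 15 no longer passed and 9 came to pass; of 281 values under the other alternatives these were 266, 4 and 10, and 1 reversed. In 29 of the 821, a value that did not pass changed sign without passing. The reversed value was mmcm-1 in wild type, −0.03 on the main probe set and 0.42 on the other. Of 1180 values of called genes in the other lists, 1049 still passed and 131 did not. With the 3′ minus 5′ covariate, 1770 probe sets passed for Cd in wild type (2693 without it) and 0 members passed the interaction, as with the replicate block (2 with neither). Between the strains without Cd, 1 member passed with the filter on dim probe sets and 1 with the intensity trend, against 0, and 23 probe sets changed with only the arrays compared, against 371. With 1 array left out, members passing ranged from 0 to 1 (strains without Cd and with Cd) and from 0 to 2 (interaction), and probe sets changed from 168 to 461 without Cd, from 1155 to 2139 with Cd (main 1930), from 1952 to 2678 for Cd in wild type, from 4012 to 5308 in MT KO (main 5067) and from 823 to 1384 for the interaction (main 1229). The lowest counts came without wild type no-Cd replicate 2 (168) or MT KO no-Cd replicate 2 (170) for the strains without Cd, and without wild type Cd replicate 1 (1155) with Cd. The shunt mean minus the canonical mean stayed between −1.23 and −1.01 for Cd in wild type and between −1.74 and −1.61 in MT KO.

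Same-numbered arrays did not deviate together: the correlation of their deviations from the group means ran from −0.20 to 0.24 over 18 pairs, against −0.33 to 0.25 for arrays of different number, so the numbers were not treated as pairs. The replicate block changed the call of no member other than hach-1 (−1.08, limma adjusted p = 0.0749) and hphd-1 (−0.75, adjusted p = 0.0649) in the interaction. Among the lists, it made 2 branched-chain genes and 1 hypodermis marker pass for Cd in wild type, against 1 and 0. It also took the sperm count there from 1 to 0, and acdh-6 no longer passed (limma adjusted p = 0.0591). In MT KO the falls of mmab-1 (0.0736) and of a branched-chain gene (0.0519) were lost with the block. pcca-1 in MT KO passed after quantile normalization (0.25, adjusted p = 0.0436) and without MT KO no-Cd replicate 1 (0.26, adjusted p = 0.0329), in a range of 0.00891 to 0.306, and pccb-1 there passed with only the arrays compared (0.21, adjusted p = 0.0249, range 0.0249 to 0.891). With 3 arrays a group and no scanner intensities used, differences of the size seen for pcca-1 lie at the limit of what the fit could call. The causes of these changes were not tested.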

Other observations

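The families of ech-6 and alh-8 were counted as well. Of 9 enoyl-CoA hydratase genes besides ech-6, 4 fell with Cd in wild type, 5 fell in MT KO and none rose (medians −0.29 and −0.41). Among all probe sets, 5.5% fell in wild type and 11% in MT KO. With ech-6 included the MT KO count was 6, and 3 without MT KO no-Cd replicate 2. ech-2 fell by 0.46 (SE 0.0724, limma adjusted p = 0.00309) and 0.48 (adjusted p = 0.00103). ech-9 passed too, but its level with Cd lay below the median of all values, at 3.18 ± 0.27 and 3.45 ± 0.10 (SD, n = 3), so no fold is given, and its wild-type call was lost with only the arrays compared (limma adjusted p = 0.0785, range over the alternatives 0.00257 to 0.0785).

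Of 12 aldehyde dehydrogenase genes besides alh-8, 3 rose and 2 fell in wild type, and 3 rose and 1 fell in MT KO (medians −0.04 and 0.02). Among all probe sets, 11.9% changed in wild type (5.5% fell) and 22.5% in MT KO (11% fell). alh-5 rose by 1.61 (SE 0.118, limma adjusted p = 2.97e-05) and 1.59 (adjusted p = 1.71e-05), while alh-13 fell by 1.01 (SE 0.0973, adjusted p = 0.000188) and 0.71 (adjusted p = 0.000583). alh-1 rose by 0.39 (limma adjusted p = 0.00714, range over the alternatives 0.0041 to 0.0984) and 0.29 (adjusted p = 0.0168, range 0.00328 to 0.0596). The wild-type rise of alh-1 was lost with the 3′ minus 5′ control signal in the fit (0.29) and with only the arrays compared, and that in MT KO with the same signal (0.24) and without MT KO Cd replicate 3 (0.25) or MT KO no-Cd replicate 3 (0.29).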
